A study of Mus musculus with 19 samples.

Results

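The 34 genes examined here encode the enzymes and carriers that activate fatty acids and oxidise them in mitochondria and peroxisomes, with the ketone body enzyme Bdh1, acyl-CoA thioesterases, the pantetheinase Vnn1 and the nuclear receptor gene Ppara. They were chosen by symbol, and all 34 were found among the 24054 gene symbols of the liver RNA-seq table. Liver RNA of 3 L-RalyKO mice and 3 control mice was compared. All mice were Raly flox/flox on a C57BL/6 background and chow fed, and all had received an adeno-associated virus with the TBG promoter 4 weeks before. L-RalyKO mice had received AAV8.TBG.Cre and controls AAV8.TBG.GFP, so that the controls, labelled wild type, carried the floxed allele and a virus too. The TBG promoter restricts Cre to hepatocytes, whereas the RNA came from whole liver, and the age of these mice is not given in the sources used here. The ATAC-seq and ChIP-seq samples were not analysed here. The question for these genes was whether the oxidative side of hepatic lipid metabolism differs in liver without RALY, an RNA-binding protein of the hnRNP family.

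Fatty acids enter oxidation as acyl-CoA esters. Long chains are handed to carnitine by CPT1A, carried across the inner mitochondrial membrane and shortened in a repeating cycle of dehydrogenation, hydration, dehydrogenation and thiolysis, whose electrons reach the respiratory chain in part through the electron transfer flavoprotein. Peroxisomes shorten very long chains and pass the products on as carnitine esters. In liver much of the resulting acetyl-CoA becomes ketone bodies, and PPARA, which binds DNA together with RXRA, is the receptor best known for switching these genes on in fasting.

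A value here is a gene's CPM, its reads divided by the effective size of the library and not by gene length, and a log2 fold change is L-RalyKO minus control on the log2(value + 1) scale. Libraries held 28302983 to 38052705 reads, each member had at least 378 reads in every library, and all 34 passed the filter on low values (a mean of at least 1, met by 11580 genes). Raly itself was 50.1, 48.6 and 46.8 in control mice 1, 2 and 3 and 6.34, 6.61 and 7.39 in L-RalyKO mice 1, 2 and 3 (log2 fold change −2.67, adjusted p = 6.92e-07, limma). Of 8 hepatocyte markers, 2 were higher in L-RalyKO liver at adjusted p under 0.05 (3.36% of all genes were), among them Hnf4a (log2 fold change 0.55, adjusted p = 0.0155, limma, and up to 0.0617 without 1 mouse). The summed value of the 8 ran from 82216 to 91405 in controls and from 92607 to 93926 in L-RalyKO mice. Most of that sum was Alb, whose groups overlapped (log2 fold change 0.05, adjusted p = 0.889, limma). Alb was 63858, 71897 and 69011 in control and 70091, 70785 and 70819 in L-RalyKO mice. None of the tested markers of Kupffer cells (8), endothelial cells (7), stellate cells (8), cholangiocytes (3) and lymphocytes (1) had an adjusted p under 0.05 in limma. At an unadjusted p under 0.05 there were 2 of them, Col3a1 and Sox9, both higher (11.8% of all genes were higher at that p). Of 3 tested adipocyte markers, 1 was lower, Cfd, described further on. In whole liver, fewer cells of a type and less RNA per cell cannot be told apart.

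Of the 34 genes, 2 had an adjusted p under 0.05, and both were lower in L-RalyKO liver, Vnn1 and Crot. That is 5.88% of the members, beside 6.55% of all genes tested in either direction and 3.19% lower. No member was called higher (3.36% of all genes were) by limma. On recovered reads edgeR's quasi-likelihood test (6.76% of all genes called) and limma voom (6.36%) called the same 2, and DESeq2 (9.4%) called 5, adding Acaa1b and Acadm as lower and Cpt1a as higher. The same 2 were called with total count scaling (6.85% of all genes), upper-quartile scaling (6.71%), a pseudocount of 0.1 (6.6%), a minimum mean of 5 (7.52%) and a replicate block (6.08%), and Vnn1 alone with every gene that has a read (2.81%) and without an intensity trend (4.63%). At an unadjusted p under 0.05 in limma there were 10 members (22.7% of all genes), 1 higher (11.8%) and 9 lower (10.9%). The groups did not overlap for 10 members (28.1% of all genes), 3 higher (14.4%) and 7 lower (13.7%). The called share is close to that of all genes, whereas the 9 lower at an unadjusted p are a larger share of the members than of all genes. Control mouse 1, described further on, was the highest liver for 18 of the 34. The log2 fold change was negative for 25 members and positive for 9, with a median of −0.069, beside 0.0044 over all genes tested.

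Most members differed little, and the interval of the difference was narrow for them. The 95% interval of the log2 fold change lay inside −0.32 to 0.32, a 1.25-fold difference either way, for 24 of the 34 genes, and inside a 1.5-fold difference for 30. For 1 gene taken alone, 3 mice against 3 allow no exact permutation p under 0.1, the value of every member whose groups did not overlap.

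**Figure D1:**
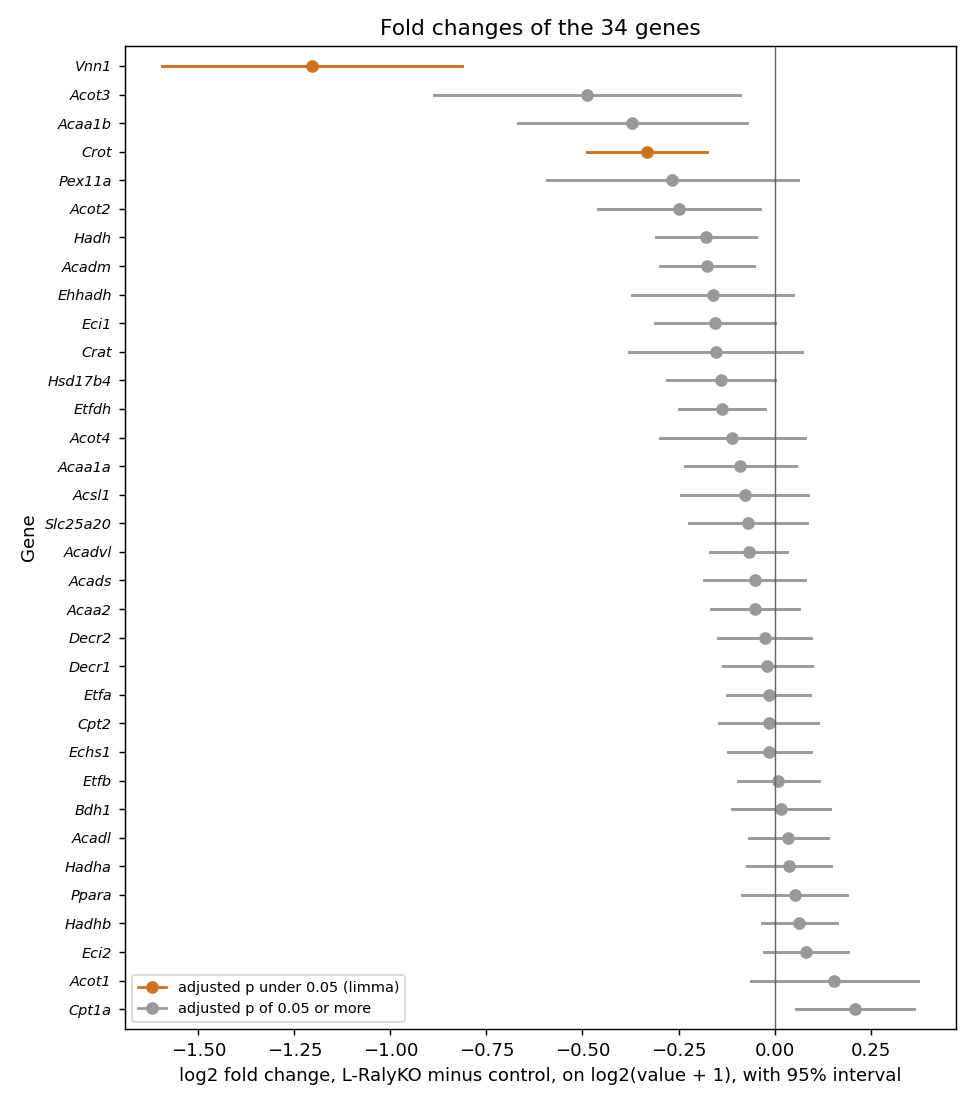
Log2 fold change of each of the 34 genes (L-RalyKO minus control, on log2(value + 1)) with its 95% interval from limma, sorted from the largest fall to the largest rise; orange marks an adjusted p under 0.05. Vnn1 stands apart at −1.20, Crot is the other orange point at −0.33, and 24 of the intervals lie within a 1.25-fold difference.

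The receptor gene Ppara had values of 601, 582 and 553 in control mice and 631, 564 and 606 in L-RalyKO mice, and the groups overlapped. The means were 579 ± 24.0 and 600.3 ± 33.98 (SD, n = 3 mice each), and the difference of 0.05 on the log2 scale had a standard error of 0.060 (95% interval −0.08 to 0.19, adjusted p = 0.662, limma). Its position is chr15:85565413-85633249 (+ strand, NCBIM37, the assembly also called mm9).

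Vnn1 encodes a pantetheinase, an enzyme that frees cysteamine and pantothenate from pantetheine, and it is a well-known PPARA target of liver. Its values were 140, 101 and 93.7 in control mice and 37.2, 51.1 and 54.8 in L-RalyKO mice. Every L-RalyKO mouse was below every control, and the control spread came mainly from control mouse 1, the highest. The means were 111 ± 24.8 and 47.7 ± 9.26 (SD, n = 3 mice each), a fall of 57.2%. In limma the log2 fold change was −1.20 with a 95% interval of −1.59 to −0.81 and a standard error of 0.17 (adjusted p = 0.00647). Without control mouse 1 it was −1.03 (adjusted p = 0.0139, limma), and with any 1 of the 6 mice left out the adjusted p was between 0.00634 and 0.0199. Vnn1, at chr10:23614494-23625149 (+ strand, NCBIM37), overlaps no exon of another annotated gene, and none of the 50-base words of its transcripts occurs in a transcript of another gene.

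Activation and the carnitine shuttle are served by Acsl1 (acyl-CoA synthetase), Cpt1a and Cpt2 (carnitine palmitoyltransferases of the outer and inner mitochondrial membrane), Slc25a20 (the carnitine-acylcarnitine carrier), Crat (carnitine acetyltransferase) and Crot (the peroxisomal carnitine octanoyltransferase). Crot was 524, 461 and 492 in control mice and 408, 360 and 405 in L-RalyKO mice. The groups did not overlap, with L-RalyKO mouse 2 the lowest. The means were 493 ± 31.7 and 391 ± 26.8 (SD, n = 3 each), a fall of 20.6%. On the log2 scale this was −0.33, with a 95% interval of −0.49 to −0.18 and a standard error of 0.069 (adjusted p = 0.0265, limma). Crot spans chr5:8966033-8997324 (− strand, NCBIM37). This call was the less stable of the pair, since its adjusted p was 0.0861 without control mouse 1 and 0.0585, 0.0739 and 0.0522 without L-RalyKO mice 1, 2 and 3 (limma), with log2 fold changes from −0.38 to −0.27 when 1 mouse was left out.

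Cpt1a, the gene of the step that governs entry of long chains into mitochondria, was 623, 650 and 670 in control mice and 765, 685 and 801 in L-RalyKO mice. All L-RalyKO mice were above all controls, and L-RalyKO mouse 2 was the nearest to them. The means were 648 ± 23.9 and 750.2 ± 59.1 (SD, n = 3 each). The difference of 0.21 on the log2 scale, the largest positive value among the 34, had a 95% interval of 0.06 to 0.36 and a standard error of 0.067, and did not pass the threshold in limma (adjusted p = 0.106). Across the other settings its adjusted p lay between 0.05 (DESeq2, just under the threshold) and 0.172, and between 0.0563 and 0.262 when 1 mouse was left out. Cpt1a spans chr19:3323301-3385732 (+ strand, NCBIM37). Acsl1 had a mean of 1777 ± 111 in control and 1684 ± 105 in L-RalyKO liver (SD, n = 3 each), and its log2 fold change was −0.08. Slc25a20 and Cpt2 had log2 fold changes of −0.07 and −0.015, both of which changed sign without control mouse 1. Crat, the lowest of these genes per kb, was 72.1, 62.0 and 55.8 in control and 62.9, 53.6 and 53.4 in L-RalyKO mice, with overlap (−0.15, adjusted p = 0.399, limma).

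**Figure D2:**
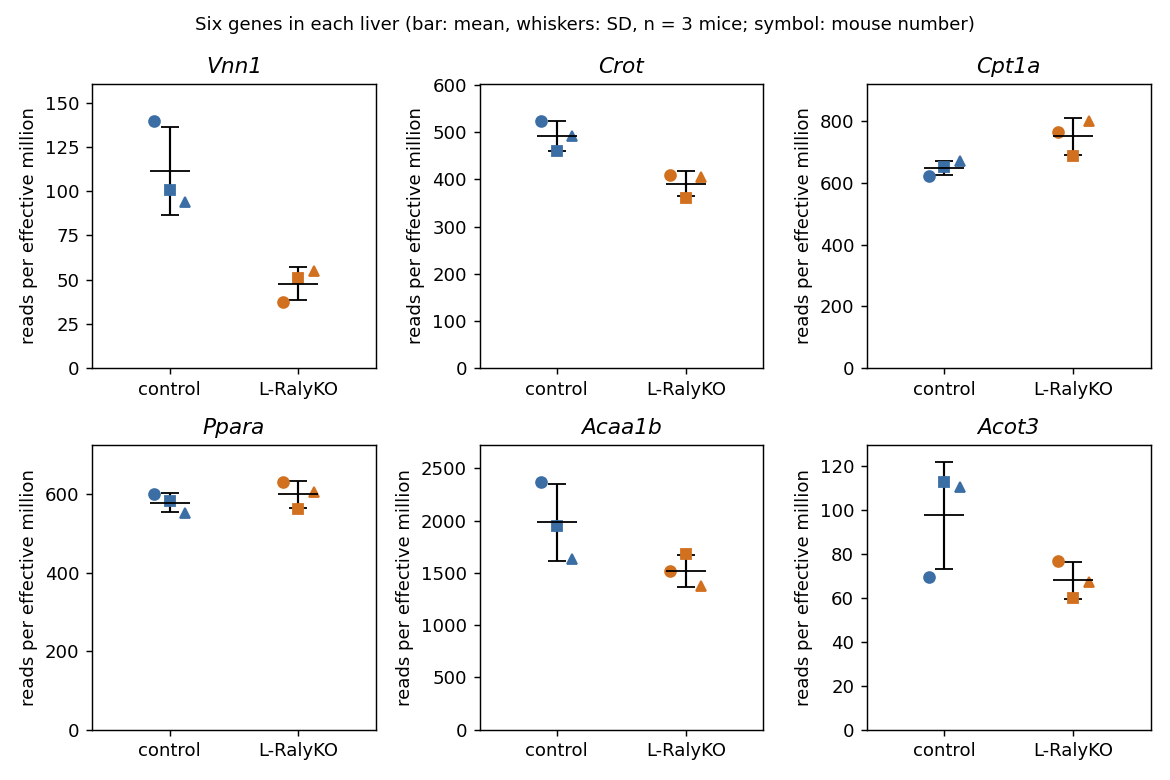
Values (CPM on the effective library size) of Vnn1, Crot, Cpt1a, Ppara, Acaa1b and Acot3 in the 3 control and 3 L-RalyKO livers, with the mean as a bar, the SD as whiskers and a symbol for each mouse number. Vnn1 and Crot are lower and Cpt1a higher in every L-RalyKO mouse than in every control, Ppara overlaps at 553 to 631, and the control mice spread widely for Acaa1b (1633 to 2369) and Acot3 (69.4 to 113).

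Upstream bases of Crot and Cpt1a are shown because these are the carnitine acyltransferase genes whose groups did not overlap. They run from 250 to 1 bases before the gene start, come from RefSeq on GRCm38.p6 and are read on the gene's strand (Crot, chr5:8997147-8997396, − strand, and Cpt1a, chr19:3323051-3323300, + strand). Capitals mark CCAAT on the strand shown, the box bound by NFY, the factor the study paired with RALY.
Crot: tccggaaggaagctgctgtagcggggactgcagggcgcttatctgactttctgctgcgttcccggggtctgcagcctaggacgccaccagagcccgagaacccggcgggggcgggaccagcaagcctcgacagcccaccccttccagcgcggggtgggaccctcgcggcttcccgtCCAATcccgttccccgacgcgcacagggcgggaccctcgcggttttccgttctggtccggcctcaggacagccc
Cpt1a: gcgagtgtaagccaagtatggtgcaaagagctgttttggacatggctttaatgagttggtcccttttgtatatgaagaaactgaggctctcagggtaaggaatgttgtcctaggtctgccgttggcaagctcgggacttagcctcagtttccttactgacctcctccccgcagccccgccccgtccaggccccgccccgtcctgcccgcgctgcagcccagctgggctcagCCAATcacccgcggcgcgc
CCAAT was searched on both strands in windows from 250 bases before to 50 bases after each start, and it begins at −74 in Crot and at −19 in Cpt1a. Of the members, 29 had a window in the table (Crat, Acaa2, Decr1, Hsd17b4 and Vnn1 had none), with 32 windows in all. CCAAT occurred in 16 of these 32 and in 37.4% of the 32851 windows of all genes. The direct repeat read by PPARA with RXRA was searched on both strands as a pair of AGGTCA half-sites with any 1 base between (0.0396% of all windows) and, including those matches, with AGGNCA in place of each (0.381%), and neither occurred in a member window. No match says only that these letters are not in this window.

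The mitochondrial cycle itself is run by the acyl-CoA dehydrogenases of very long, long, medium and short chains (Acadvl, Acadl, Acadm and Acads), the hydratase Echs1, the hydroxyacyl-CoA dehydrogenase Hadh, the trifunctional protein subunits Hadha and Hadhb, and the thiolase Acaa2. None of these 9 genes had an adjusted p under 0.05 (limma, edgeR and limma voom; DESeq2 called Acadm), and 2, Acadm and Hadh, had an unadjusted p under 0.05, a share close to the 22.7% of all genes. Their summed value was 3666, 3572 and 3500 in control mice and 3440, 3485 and 3434 in L-RalyKO mice, or 96.5% of the control mean, and each L-RalyKO mouse was below each control. Acaa2 held the highest level of the 9, per kb of annotated exon as well. It was 986, 975 and 933 in control mice and 915, 940 and 937 in L-RalyKO mice, and the groups overlapped (log2 fold change −0.05, 95% interval −0.17 to 0.06). Acadl, Acads and Echs1 overlapped as well, with log2 fold changes of 0.04, −0.05 and −0.01.

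Acadm was 476, 426 and 455 in control mice and 403, 405 and 392 in L-RalyKO mice, without overlap (log2 fold change −0.18, adjusted p = 0.0926, limma). Hadh was 352, 333 and 309 against 290, 300 and 286, again without overlap (−0.18, adjusted p = 0.104, limma, and 0.0433 without control mouse 3). The trifunctional protein subunits were slightly higher in value. Hadhb was 242, 235 and 245 in control and 251, 249 and 255 in L-RalyKO mice, with no overlap (0.06, adjusted p = 0.42, limma). Hadha and Hadhb start back to back on chromosome 5 of NCBIM37, Hadha on the − strand from 30481702 downwards and Hadhb on the + strand from 30481788. Hadha overlapped between the groups, with a log2 fold change of 0.04. Acadvl showed the tightest controls, 470, 472 and 467, with L-RalyKO values of 443, 457 and 444 (−0.07, adjusted p = 0.405, limma).

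Double bonds are handled by auxiliary enzymes, the dienoyl-CoA reductases Decr1 (mitochondrial) and Decr2 (peroxisomal) and the enoyl-CoA isomerases Eci1 and Eci2. Eci1 and Eci2 had values of opposite direction. Eci1 had a mean of 138 ± 12.6 in control and 124 ± 3.99 in L-RalyKO liver (SD, n = 3 each), and the groups overlapped (−0.16, adjusted p = 0.22, limma). Eci2 was 241, 237 and 236 in control and 247, 245 and 265 in L-RalyKO mice, without overlap (0.08, standard error 0.048, 95% interval −0.03 to 0.19, adjusted p = 0.355, limma). Decr1 and Decr2 had log2 fold changes of −0.019 and −0.026, and the sign of each changed when a mouse was left out.

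Electrons leave the dehydrogenases through the flavoprotein subunits Etfa and Etfb and its oxidoreductase Etfdh. Etfdh was 308, 290 and 290 in control and 278, 262 and 268 in L-RalyKO mice. These groups did not overlap (log2 fold change −0.14, 95% interval −0.25 to −0.03, adjusted p = 0.14, limma). Etfa and Etfb, the subunits of the flavoprotein, overlapped between the groups and had log2 fold changes of −0.015 and 0.01, the latter negative (−0.024) with total count scaling.

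Peroxisomal oxidation is represented by the bifunctional enzymes Ehhadh and Hsd17b4, the thiolases Acaa1a and Acaa1b, and Pex11a, which acts in peroxisome division. All 5 had negative log2 fold changes, as did 5655 of the 11580 genes tested, with a median of −0.16, and none had an adjusted p under 0.05 in limma (1 had an unadjusted p under 0.05, as had 22.7% of all genes, and DESeq2 called 1, Acaa1b in both cases; edgeR and limma voom called none). Their summed value was 3916, 3283 and 2979 in control and 2793, 3001 and 2595 in L-RalyKO mice, or 82.4% of the control mean, and control mouse 3 fell within the L-RalyKO range. Most of that sum is Acaa1b. It was 2369, 1946 and 1633 in control and 1515, 1677 and 1372 in L-RalyKO mice, so that control mouse 3 lay below L-RalyKO mouse 2. The means were 1983 ± 369 and 1521 ± 153 (SD, n = 3 each). The difference was −0.37 on the log2 scale (95% interval −0.67 to −0.07, standard error 0.13, adjusted p = 0.135, limma), −0.23 without control mouse 1 and −0.50 without control mouse 3 (adjusted p = 0.305 and 0.0378, limma).

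Acaa1a (chr9:119250412-119259413, + strand) and Acaa1b (chr9:119057141-119066211, − strand, NCBIM37) share sequence. Of the 50-base words of Acaa1a transcripts 32.0% also occur in Acaa1b, and of those of Acaa1b 35.5% occur in Acaa1a, so that the authors' counting could have split reads between them. Acaa1a was 289, 281 and 246 in control and 253, 259 and 254 in L-RalyKO mice, with overlap (−0.09, adjusted p = 0.454, limma). Hsd17b4 was 661, 579 and 586 against 565, 551 and 538, without overlap (−0.14, adjusted p = 0.223, limma). Ehhadh overlapped between the groups (516, 421 and 461 against 406, 464 and 379, log2 fold change −0.16), and so did Pex11a. Pex11a was 81.9 in control mouse 1 and 49.6 to 56.1 in the other 5 mice, and its log2 fold change of −0.27 became −0.07 without that mouse.

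Bdh1, the mitochondrial dehydrogenase that interconverts acetoacetate and 3-hydroxybutyrate, was 238, 235 and 215 in control and 230, 224 and 242 in L-RalyKO mice. The groups overlapped throughout (log2 fold change 0.02, 95% interval −0.11 to 0.14, adjusted p = 0.899, limma), and with total count scaling the value was −0.017.

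The thioesterases that split acyl-CoA back into free acid and CoA lie together on chromosome 12 of NCBIM37, from the start of Acot2 at 85328811 to the end of Acot3 at 85400515. Acot1 is cytosolic, Acot2 mitochondrial, and Acot3 and Acot4 peroxisomal. None had an adjusted p under 0.05 in limma, edgeR, limma voom or DESeq2, and 2, Acot2 and Acot3, both lower, had an unadjusted p under 0.05 (10.9% of all genes were lower at that p). Acot3 was 69.4, 113 and 111 in control and 76.9, 60.0 and 67.0 in L-RalyKO mice. Control mouse 1 lay among the L-RalyKO mice, and the other two controls were far above them. On the log2 scale the difference was −0.49 (95% interval −0.89 to −0.09, standard error 0.17, adjusted p = 0.139, limma) and −0.71 without control mouse 1 (adjusted p = 0.0115, limma), so that 1 control liver decided this call.

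Acot1 had values of 80.8, 88.4 and 71.4 in control and 88.9, 80.1 and 99.4 in L-RalyKO mice (log2 fold change 0.16, 95% interval −0.06 to 0.37, standard error 0.095, adjusted p = 0.377, limma). With 1 mouse left out this fold change ran from 0.075 (without control mouse 3) to 0.23 (without L-RalyKO mouse 2). Acot2 had the lowest level of the 34 genes per kb of annotated exon, and was 14.8, 14.9 and 11.9 in control and 11.3, 10.97 and 12.1 in L-RalyKO mice (−0.25, adjusted p = 0.155, limma). Acot4 was 75.6, 89.5 and 78.7 against 80.1, 67.5 and 78.1 (−0.11), with overlap. These values are uncertain as to gene, because 47.1% of the 50-base words of Acot1 occur in transcripts of other genes, and 34.8% of all its words occur in Acot2, and the corresponding total was 27.6% for Acot2, 10.0% for Acot3 and 12.1% for Acot4. Acot3 and Acot4 also overlap exons of 4732463B04Rik on the opposite strand.

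Levels between genes can be compared only per length. Per kb of annotated exon (NCBIM37, all exons of a gene merged), the mean control value ran from 6.31 for Acot2 to 1010 for Acaa1b. The next highest after Acaa1b was Acaa2 at 637, and all others were at or below the 202 of Etfb. Crat (11.7) and Pex11a (26.8) were the next lowest after Acot2, and Ppara (151), Cpt1a (151), Acaa1a (149) and Acadm (154) had like levels. Vnn1, at 46.1 per kb in control liver, was at 19.7 in L-RalyKO liver.

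The 6 livers did not contribute evenly. Control mouse 1 held the highest value of 18 of the 34 genes and the lowest of 1, whereas control mouse 3 held the highest of 0 and the lowest of 13. The median deviation of the 34 genes from their own mean over the 6 livers, on the log2 scale, was 0.084 in control mouse 1, 0.022 in control mouse 2 and −0.047 in control mouse 3. In the L-RalyKO mice it was −0.026, −0.045 and −0.042, so that control mouse 3 lay below all of them. The summed value of all 34 genes was 14032, 12993 and 12499 in control and 12297, 12200 and 12217 in L-RalyKO mice, 92.9% of the control mean. Without control mouse 1 the median log2 fold change of the members was −0.031, with 22 negative and 12 positive values, and without control mouse 3 it was −0.10, with 27 negative. Control mouse 1 also had the highest value of several genes of fat cells. Among them were Cfd (12.6, against 2.74 and 3.46 in the other controls and at most 1.1 in L-RalyKO mice) and Cidea (14.1, 0.526 and 0.892, and at most 0.087 in L-RalyKO mice). The same mouse was the highest liver for Cidec (38.8, 7.54 and 14.1 in control mice, at most 6.30 in L-RalyKO mice), Plin2 and Fitm1. Of the adipocyte markers, Adipoq, Lep, Retn, Fabp4 and Lipe were highest there too, and Plin1 was not. The log2 fold change of Cfd was −2.10 (adjusted p = 0.0318, limma), a value compressed by the pseudocount of 1 at this low level, and −3.52 with a pseudocount of 0.1 and −3.73 in edgeR (adjusted p = 0.143). Of 7 adipocyte markers, Adipoq, Lep, Retn and Plin1 were below the filter in these livers (Adipoq at most 0.119), and the summed value of the 7 was 51.3, 35.0 and 28.8 in control and 30.4, 33.7 and 29.2 in L-RalyKO mice. Their part in the member values was not tested. The fall of Vnn1 passed the threshold without control mouse 1, as given above.

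**Figure D3:**
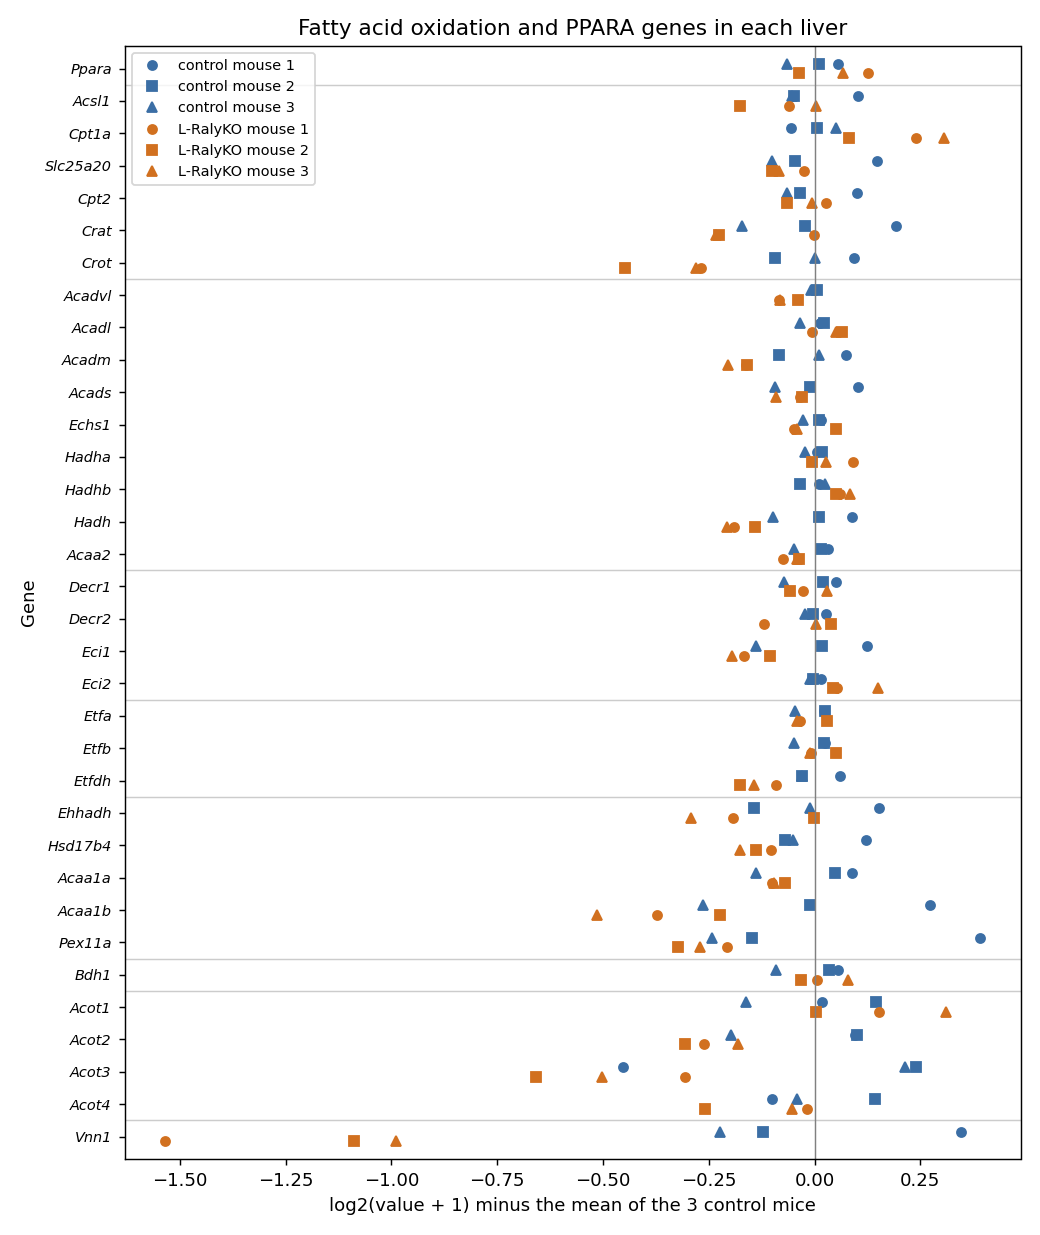
Each of the 34 genes in each liver, as log2(value + 1) minus the mean of the 3 control mice; blue symbols are control and orange symbols L-RalyKO mice, the symbol shape is the mouse number and grey lines part the functional groups. Control mouse 1 (blue circles) is the highest of the 6 livers for 18 genes, and the 3 L-RalyKO mice are far to the left of the controls for Vnn1 alone.

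Genes of the same pathway outside the 34 were taken from lists written from general knowledge, with earlier results of these data known. The same holds for the lists of PPARA targets, partners, feeding, fasting and clock genes below. Their called shares beside those of all genes are therefore a description and not an independent comparison. Of 48 tested genes of oxidation and ketone synthesis, 2 were higher and 1 lower at adjusted p under 0.05 (limma), beside 3.36% and 3.19% of all genes, and the median log2 fold change was −0.019. Acsl4, an acyl-CoA synthetase that prefers arachidonate, was 48.9, 50.04 and 57.4 in control and 73.0, 71.1 and 70.0 in L-RalyKO mice (log2 fold change 0.45, adjusted p = 0.0072, limma). Nudt7, a peroxisomal hydrolase of CoA, rose by 0.23 (adjusted p = 0.0332, limma), and Abcd2, a peroxisomal transporter of very long chain acyl-CoA, fell by 0.52 (adjusted p = 0.0475, limma). Neither was stable when single mice were left out, since the adjusted p of Nudt7 then ran from 0.0546 to 0.101 and that of Abcd2 from 0.041 to 0.124.

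Of 32 tested genes known as PPARA targets in other processes, 5 were lower and 0 higher at adjusted p under 0.05 in limma (15 at an unadjusted p under 0.05, 5 of them higher; higher calls were 0 in edgeR and limma voom and 2 in DESeq2). Over all genes the shares were 3.19% lower, 3.36% higher and 22.7% at an unadjusted p under 0.05. The median log2 fold change of the 32 was −0.11. The 5 were Cd36 (fatty acid uptake), Plin4 (a lipid droplet coat protein), Cyp4a14 (a fatty acid omega-hydroxylase), Gpd1 (glycerol 3-phosphate dehydrogenase) and Retsat (retinol saturase). Cd36 had the largest fall of them, from 153, 102 and 107 in control to 31.5, 43.5 and 35.8 in L-RalyKO mice (log2 fold change −1.67, adjusted p = 0.00133, limma). Cyp4a14 was 802, 985 and 968 in control and 467, 590 and 645 in L-RalyKO mice (−0.70, adjusted p = 0.0138, limma), with control mouse 1 the lowest control. Its neighbour in the family Cyp4a10 overlapped between the groups (−0.11, adjusted p = 0.339, limma). Plin4 (−0.94), Gpd1 (−0.58) and Retsat (−0.49) had adjusted p of 0.012, 0.011 and 0.00429 (limma), and Plin4 did not pass in edgeR (0.0535). Fgf21 and Pdk4, which respond to fasting through PPARA, had low values (at most 1.49 and 6.69) and adjusted p of 0.601 and 0.41 (limma).

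Among 26 partners and regulators of PPARA, 2 were higher and 2 lower at adjusted p under 0.05 (limma), beside 3.36% and 3.19% of all genes. Lpin1, whose product makes diacylglycerol and also acts as a coactivator of PPARA with PGC-1α, was 444, 314 and 655 in control and 1344, 1002 and 1151 in L-RalyKO mice. Its groups did not overlap although the controls varied more than 2-fold (log2 fold change 1.36, adjusted p = 0.012, limma, and 0.0914 in edgeR). Ppargc1b, the gene of the coactivator PGC-1β, was 8.20, 10.1 and 7.14 in control and 13.4, 12.5 and 12.9 in L-RalyKO mice (0.57, adjusted p = 0.0204, limma). It passed in 9 of the 10 alternatives, but not with every gene that has a read (0.0515, limma). Of the 6 fits without 1 mouse it passed in 2, without control mouse 2 and without control mouse 3. Pparg and Rxrg, both low in liver, fell by 0.68 and 0.62 (adjusted p = 0.0214 and 0.0162, limma). Pparg did not pass without L-RalyKO mouse 1 or 3 (0.0709 and 0.0661) or with every gene that has a read (0.0537), and Rxrg did not pass without control mouse 1 (0.063). Rxra, the main partner of PPARA in liver, overlapped (0.12, 95% interval −0.01 to 0.25), and so did Ppargc1a (−0.21, adjusted p = 0.406, limma).

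**Figure D4:**
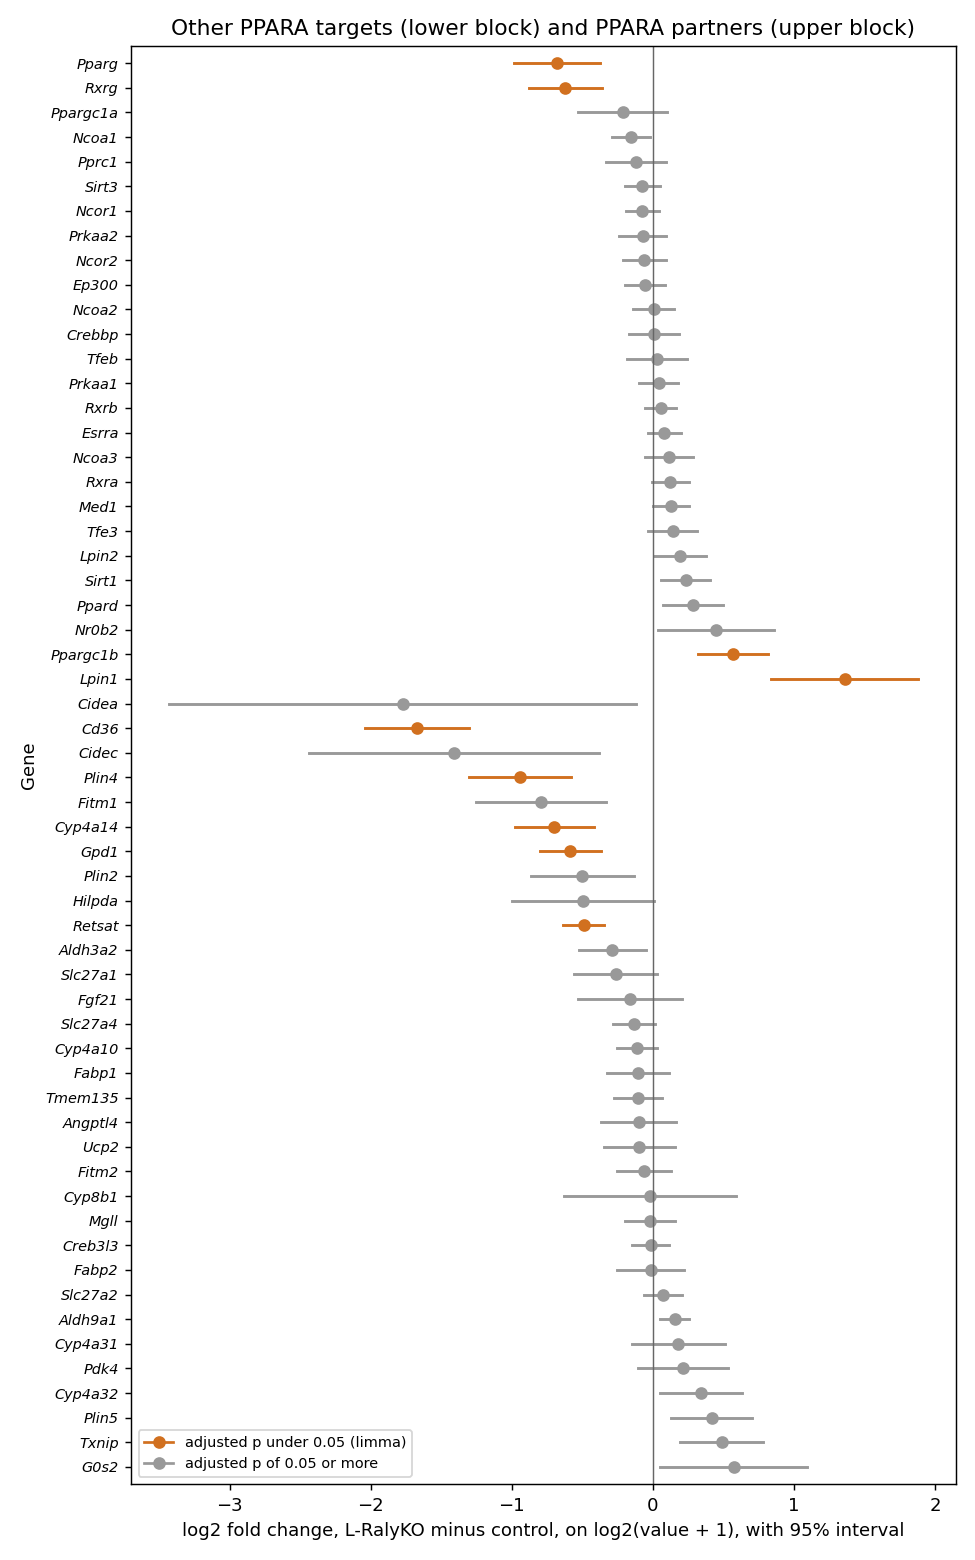
Log2 fold change (L-RalyKO minus control, on log2(value + 1)) with its 95% interval for 26 partners and regulators of PPARA (upper block) and 32 PPARA targets outside the main group (lower block); orange marks an adjusted p under 0.05. In the lower block the 5 orange points all lie below 0, from −1.67 (Cd36) to −0.49 (Retsat), and in the upper block Lpin1 (1.36) and Ppargc1b (0.57) lie above 0 and Pparg and Rxrg below.

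Genes that follow feeding moved with the groups. Of 9 tested genes that rise with feeding, 6 were lower at adjusted p under 0.05 (limma), namely Srebf1, Fasn, Acaca, Acly, Elovl6 and Pklr, with log2 fold changes from −0.65 to −0.30, beside 3.19% of all genes. Acly, Elovl6 and Pklr passed in all 10 alternatives and all 6 fits without 1 mouse. Fasn did not pass in edgeR (adjusted p = 0.0675) and passed in 1 of the 6 fits without 1 mouse, Acaca in 2 and Srebf1 in 4. Of 10 genes that rise with fasting, Pck1 (0.78) and Sesn1 (0.41) were higher and G6pc (−0.61) was lower (adjusted p = 0.00312, 0.0099 and 0.0125, limma), beside 3.36% and 3.19% of all genes. Of 15 tested clock genes, Nfil3 alone had an adjusted p under 0.05 (0.73, 0.0185, limma, and from 0.0555 to 0.0613 without any 1 of the L-RalyKO mice), and 7 had an unadjusted p under 0.05 (6.55% and 22.7% of all genes). The paper notes fasting mice beside a liver qPCR result of its chow-fed L-RalyKO mice. Whether the RNA-seq mice were fasted is not stated there. The part of feeding and of time of day in the member values was not tested.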

How the data were processed

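Whole liver RNA-seq was used, with 3 L-RalyKO and 3 control mice. The study's methods give stranded libraries, TopHat v2.0.2 on mm9 and Cufflinks v2.0.2 with Cuffdiff FPKM values. The values the authors deposited are instead a normalized signal, a gene's reads over the effective library size, and 100% were whole multiples (tolerance 0.001) of the value of 1 read, so that reads were recovered. A gene with 3 reads has a value of 0.0789 to 0.105. Columns were matched to mice by virus and replicate number.

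Groups were compared with limma 3.58.1 (R 4.3.3) on log2(value + 1), using its intensity trend. Genes needed a mean of 1 or more, and p-values were adjusted over all of them (Benjamini-Hochberg). The design named this test for values that are not counts. Intervals are at the 95% level. The limma test was first run on simulated data. Alternatives were edgeR 4.0.16 (quasi-likelihood), DESeq2 1.42.0 and limma voom on recovered reads, 2 scalings, a pseudocount of 0.1, 2 filters, no trend, a replicate block and leaving out each mouse. That the mice were separate animals comes from the study's text. The largest correlation between same-numbered mice was 0.0664, and the numbers were not taken as pairs.

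The members and lists were chosen with earlier results of these data known. Named with full statistics were Ppara, Cpt1a, the called members and the 3 largest rises and falls. Outside the members, Raly and called genes of the lists were named. Cyp4a10, Fgf21, Pdk4, Rxra, Ppargc1a, Cidea, Cidec, Plin2, Fitm1, Fabp4, Lipe, Col3a1 and Sox9 were picked after their values were seen. Coordinates and 50-base words come from GENCODE vM1 on NCBIM37. Protein identity was replaced by shared words of transcripts. Some items are not reported here.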

Additional observations from a re-analysis of the deposited data

How the results depend on the processing

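The 2 members at adjusted p under 0.05, 0 higher and 2 lower, became 5 with DESeq2 on recovered reads (1 higher, 4 lower), and 1 (lower) both with every gene that has a read and without an intensity trend. Crot then had an adjusted p of 0.0537 and 0.0592 (limma). With edgeR, limma voom, total count or upper-quartile scaling, a pseudocount of 0.1, a mean value of at least 5 or a replicate block the count was 2, namely Vnn1 and Crot. The replicate block left all calls among the members as they were, and of all genes it gave 704 calls instead of 758. Leaving out 1 mouse at a time gave 1 to 5 members, 0 higher and 1 to 5 lower, the 5 without control mouse 3. The fall of Vnn1 passed in all 10 alternatives and all 6 fits without 1 mouse. Raly passed in all of them as well. With total count scaling 27 members were negative, and Etfb (−0.024) and Bdh1 (−0.017) turned negative. The sign also changed when mice were left out, where the log2 fold change ran from −0.12 to 0.0037 for Slc25a20, from −0.048 to 0.035 for Cpt2, from −0.046 to 0.0043 for Echs1, from −0.055 to 0.0072 for Decr1, from −0.058 to 0.021 for Decr2, from −0.014 to 0.022 for Etfb and from −0.028 to 0.045 for Bdh1. The cause was not tested. No scaling moved the median of all genes by over 0.1. At least 378 reads stood behind each member value, and counting error was not separated from the spread between mice.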
